A study of Rattus norvegicus with 6 samples.

Results

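The genes described here are 10 members of the S100 and annexin families in granulosa cells of the rat ovary, which line the growing follicle and nurse the oocyte. They are the S100 genes S100a1, S100a4, S100a6, S100a10, S100a11 and S100a13 and the annexins Anxa1, Anxa2, Anxa3 and Anxa5. They were picked by name, with earlier results of these data known, and each of the 10 names was found once among the 17525 genes of the deposited table. Because levels in these libraries were in view when the names were picked, the levels below are a description and carry no test. Primary cells were cultured from ovaries of SD rats that were 21 days old when given 60 IU of PMSG, a serum gonadotropin that makes follicles grow, 48 h before collection. Minced ovaries were digested with a pancreatic enzyme and sieved before culture, so cells other than granulosa cells could be carried along, and FSHR staining was used to identify the granulosa cells. Poly(A) RNA was sequenced in 3 libraries of a group titled ATR, here called ATR 1, ATR 2 and ATR 3. A group titled Control, with 3 further samples, is not analysed here, so no value below is a difference from untreated cells. The series' title concerns long exposure to the herbicide atrazine, but the labels do not spell out ATR, nor the dose, the duration, or whether animals or cells were exposed. Nothing in them ties a library to its own animal or culture, and the differences between libraries may therefore be technical.

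S100 proteins are small calcium sensors built from a pair of EF-hand loops, the helix-loop-helix fold that grips calcium, and most work as dimers that bind a target protein when calcium rises. Annexins are larger proteins that bind acidic phospholipid membranes in a calcium-dependent way. The families meet in complexes: S100A10, which unlike its relatives does not need calcium to be active, joins annexin A2 at the inner face of the plasma membrane, and S100A11 binds annexin A1. Annexin A5 is known for binding exposed phosphatidylserine on dying cells, and S100A4 is used as a marker of fibroblasts, though macrophages also make it.

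The assay gave each gene a TPM value, which allows genes to be compared because it corrects for how long a transcript is, and an estimated read count. Read totals were 18677212 to 19170552 per library. Differences between libraries are given on scaled reads (CPM, with TMM scaling), and a chi-square test per gene asked whether the 3 counts differed by more than counting noise, with Benjamini-Hochberg adjustment over 13309 genes with at least 30 reads. That test compares these libraries and not conditions. All 10 genes had whole read counts in every library, so no sign of reads divided with a similar gene was seen in them.

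Of the cell type markers, Foxl2 (55.1 ± 7.88 TPM, SD, n = 3) and Nr5a1 (60.9 ± 1.72 TPM) of granulosa cells were present, but Fshr was low at 5.80 ± 1.39 TPM and Cyp19a1 had 1, 1 and 2.33 estimated reads. Gja1 (1906 ± 114 TPM), Inha (443 ± 73.0 TPM) and Gata4 (189 ± 14.2 TPM) of the granulosa list were abundant. Markers of other cell types were also found: Tagln and Acta2 of smooth muscle at 10890.5 ± 415 and 5496 ± 311 TPM, Upk3b of mesothelium at 1403 ± 101 TPM and Thy1 of stroma at 70.0 ± 41.9 TPM. Others on these lists were low, such as Notch3 (1.34 TPM), Krt19 (0.137 TPM) and Pdgfra (3.43 TPM). Counts of Acta2 and Pdgfra are not whole, so their levels are uncertain. At least 100 TPM was reached by 4 of 14 granulosa, 4 of 7 smooth muscle, 4 of 12 surface epithelium and 3 of 10 stromal markers. Tagln was the most abundant gene of the table. Among macrophage and other myeloid markers Lyz2 stood at 74.0 ± 12.1 TPM, Cd14 at 19.5 ± 2.08, Cd68 at 12.7 ± 1.91 and Tyrobp at 8.83 ± 0.305 TPM. Lower were Csf1r at 3.10 ± 0.240, Itgam at 1.06 ± 0.235 and Adgre1 at 0.627 ± 0.225 TPM. Counts of Lyz2 and Cd14 are not whole, so their levels are uncertain. Endothelial Pecam1 had 0, 3 and 1 reads and leukocyte Ptprc 37, 29 and 42. Which cells made the S100 and annexin transcripts was not tested, and in such bulk RNA fewer cells of a type and less RNA per cell cannot be told apart.

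The proximal promoters of 4 of the genes are shown because they stand for the contrasts described below. S100a6 was the most abundant member and S100a4 the most variable. S100a13 was a far less abundant gene of the same chromosomal cluster, and Anxa2 the leading annexin. Each runs 5′ to 3′ from 250 bases before to 50 bases after the gene's start, from RefSeq (build GRCr8), and capitals mark the motifs searched. S100a6 is chr2:178398287-178398586, S100a4 chr2:178388279-178388578, S100a13 chr2:178296770-178297069 and Anxa2 chr8:78986002-78986301, all on the plus strand.
S100a6: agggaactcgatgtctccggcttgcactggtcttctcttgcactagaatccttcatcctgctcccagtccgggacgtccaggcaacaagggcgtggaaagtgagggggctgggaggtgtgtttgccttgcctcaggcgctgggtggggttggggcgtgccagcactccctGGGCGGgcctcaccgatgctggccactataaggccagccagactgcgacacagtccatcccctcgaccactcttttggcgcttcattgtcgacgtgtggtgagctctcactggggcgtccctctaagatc
S100a4: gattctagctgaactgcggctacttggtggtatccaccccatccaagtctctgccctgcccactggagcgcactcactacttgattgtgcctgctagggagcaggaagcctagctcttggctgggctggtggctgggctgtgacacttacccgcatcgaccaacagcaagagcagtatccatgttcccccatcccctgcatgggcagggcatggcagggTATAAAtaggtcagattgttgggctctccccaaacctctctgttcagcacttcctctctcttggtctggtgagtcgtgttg
S100a13: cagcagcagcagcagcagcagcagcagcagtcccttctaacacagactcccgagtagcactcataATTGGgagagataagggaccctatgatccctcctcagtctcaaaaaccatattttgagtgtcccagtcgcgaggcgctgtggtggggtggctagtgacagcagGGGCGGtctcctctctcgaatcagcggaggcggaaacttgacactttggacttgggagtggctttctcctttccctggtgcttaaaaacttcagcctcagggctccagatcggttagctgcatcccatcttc
Anxa2: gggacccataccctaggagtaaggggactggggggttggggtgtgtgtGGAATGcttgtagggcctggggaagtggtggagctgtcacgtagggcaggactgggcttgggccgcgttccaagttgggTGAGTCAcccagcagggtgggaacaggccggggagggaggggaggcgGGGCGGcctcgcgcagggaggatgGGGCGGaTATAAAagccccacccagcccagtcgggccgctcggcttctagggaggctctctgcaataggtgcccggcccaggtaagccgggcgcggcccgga

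A promoter window was found for 8 of the 10 genes, all but S100a1 and S100a10. Both strands were searched for 5 motifs. The TATA box was read as TATAAA, which 14.2% of all 33469 windows of that length held. The CCAAT box was read as its own letters, held by 37.5%. The GC box was read as GGGCGG, held by 33.1%. The AP-1 site was read as TGANTCA, held by 7.33%, and the TEAD site as GGAATG, held by 14.2%. No match to a motif shared bases with a match to another motif in these windows. S100a4 had a TATA box beginning 31 bases before the start and none of the other 4 motifs. S100a6 had a GC box 80 bases before the start, and S100a13 one 82 bases before it with a reversed CCAAT 185 bases before it. Anxa2 had 4 kinds: a TATA box, 2 GC boxes, an AP-1 match 123 bases before the start and a TEAD match. Over the 8 windows, 6 held a GC box, 3 a TATA box, 2 a TEAD site, 1 a CCAAT box and 1 an AP-1 site. Among the windows of genes at 1 TPM or more, 61.9% held a GC box and 6.83% a TATA box. A match is a run of letters and not a known site of binding.

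S100 transcripts outweighed those of annexins, and a few genes carried most of both. Together the 10 genes held 1.10%, 1.23% and 1.26% of all TPM in ATR 1, ATR 2 and ATR 3. The 6 S100 members summed to 8083 ± 683 TPM and the 4 annexin members to 3887 ± 142 TPM (SD, n = 3). Taking every family gene in the table, the S100 sum exceeded the annexin sum by 1.71, 1.87 and 1.87 times in the 3 libraries. Means of the 10 genes ran from 6.57 to 4093 TPM, a 623-fold range, and 5 of them lay at or above 1000 TPM, as did 154 genes of the table.

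**Figure D1:**
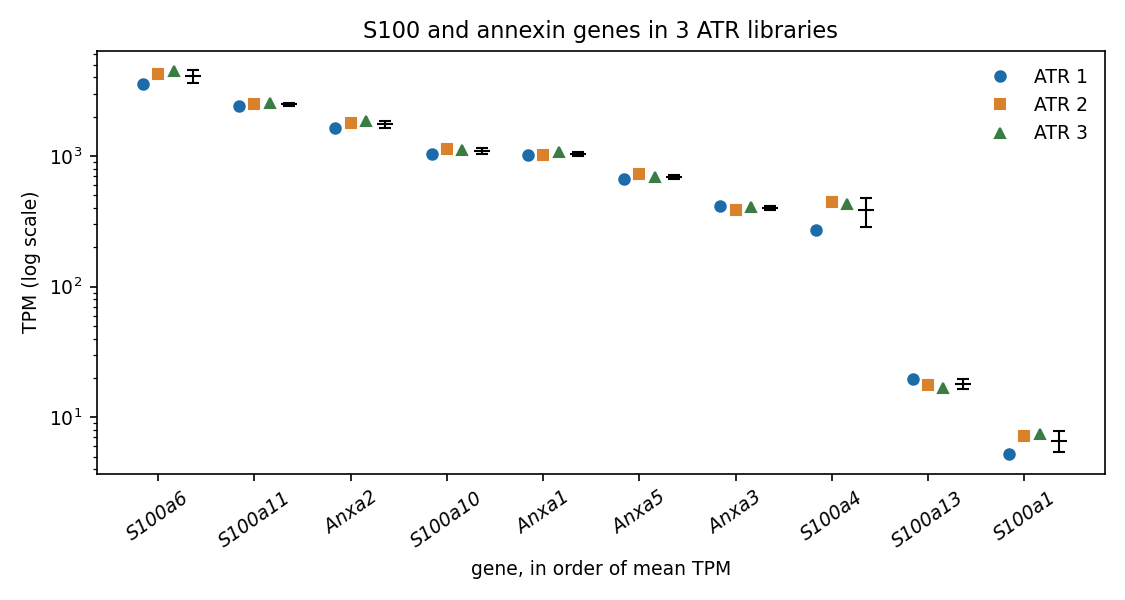
TPM (log scale) of the 10 genes in ATR 1, ATR 2 and ATR 3, in order of mean level, with the mean and SD (n = 3) as a black bar beside the points. S100a6 leads at 4093 TPM, 8 genes average at least 383 TPM, and S100a13 and S100a1 lie below 20 TPM.

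S100a6 encodes calcyclin, a growth-associated S100 protein that binds the ubiquitin ligase adaptor CacyBP. Its TPM values were 3579 in ATR 1, 4223 in ATR 2 and 4478 in ATR 3, which made it the 9th most abundant gene of the table. On its own it held 50.1% ± 1.59 of all S100 TPM. ATR 1 was the low library, and ATR 2 and ATR 3 exceeded it by 1.21 (exact 95% interval 1.18 to 1.24) and 1.29 (1.25 to 1.32) in scaled reads. The intervals here and below cover counting error only, since each rests on the read counts of a pair of libraries. They hold no term for variation between samples. Reads carry no molecular identifiers, so repeated copies of a molecule are not allowed for either.

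S100a11 encodes calgizzarin, a partner of annexin A1 with roles in membrane repair and growth arrest of epithelial cells. It followed at 2402, 2523 and 2542 TPM, or 2489 ± 75.9 (SD, n = 3), and held 30.6% ± 1.72 of S100 TPM. S100a10 (p11) stood at 1028, 1136 and 1116 TPM and held 13.4% ± 0.529. The libraries kept close together for both genes, with ATR 1 lowest in each.

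S100a4 encodes a protein that binds non-muscle myosin heavy chain and is tied to cell migration. It stood at 272.5, 447 and 429 TPM, so ATR 1 lay far below the other libraries, which were close to each other. The mean was 383 ± 96.2 TPM, and 438 TPM without ATR 1. S100a4 held 4.65% ± 0.847 of S100 TPM, and S100a6 exceeded it by 13.1, 9.44 and 10.4 times within the 3 libraries.

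The other S100 members were the least abundant of the 10 genes. Against a median of 10.1 TPM over all genes, S100a13 lay above and S100a1 below. S100a13, which in human and mouse cells helps release the growth factor FGF1 without a signal peptide, had 78, 70 and 68 reads, or 18.1 ± 1.53 TPM. S100a1, known best from heart and skeletal muscle where it acts on calcium pumps and channels, had 26, 36 and 38 reads, or 6.57 ± 1.20 TPM. Neither is resolved further at this depth: the interval for ATR 2 over ATR 1 was 0.651 to 1.28 for S100a13 and 0.826 to 2.43 for S100a1.

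Among annexins, Anxa2, the partner of S100A10 and part of a surface site for plasminogen activation, led at 1638, 1788 and 1843 TPM. It held 39.2% ± 1.07 of all annexin TPM and, being longer than the S100 transcripts, had the most reads of the 10 genes, 19152 to 22127 per library. Anxa1, a glucocorticoid-induced protein that restrains inflammation through formyl peptide receptors, stood at 1019, 1021 and 1077 TPM. Anxa5 stood at 662, 722 and 689 TPM. Anxa3, first described as an inhibitor of phospholipase A2, stood at 413, 386 and 403 TPM.

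The order of levels was S100a6, S100a11, Anxa2, S100a10, Anxa1, Anxa5, Anxa3, S100a4, S100a13 and S100a1. Library ranges of neighbours in this order did not overlap, with 2 exceptions. S100a10 (1028 to 1136 TPM) and Anxa1 (1019 to 1077 TPM) overlapped, although S100a10 was higher in each of the 3 libraries. Anxa3 and S100a4 overlapped too, and S100a4 was the higher in 2 libraries but not in ATR 1.

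The rest of the families was read from lists of every S100 and annexin symbol looked for. Of 13 S100 genes in the table, 10 reached 1 TPM and 4 reached 100 TPM. The highest of the 7 that are not members was S100a16, an S100 protein tied to fat cell differentiation in mouse, at 57.3 ± 5.92 TPM. S100g, S100b and S100a3 stood at 4.60 ± 1.09, 3.29 ± 0.342 and 2.82 ± 0.801 TPM. The remaining S100a5, S100a7a and S100z had at most 4 reads in a library. S100a8 and S100a9, which encode the neutrophil protein calprotectin, have no row in the table and are not analysed here.

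Annexins were expressed more evenly. Of 12 in the table, 9 reached 1 TPM and 6 reached 100 TPM. Beyond the 4 members, Anxa6 stood at 240.2 ± 9.36, Anxa7 at 168 ± 6.85, Anxa4 at 95.04 ± 2.85 and Anxa11, a further partner of S100A6, at 88.4 ± 3.74 TPM. Anxa8 was low, with 13, 45 and 34 reads, and Anxa9, Anxa10 and Anxa13 never exceeded 4.85 estimated reads. The 7 other S100 genes had a median of 2.82 TPM and the 8 other annexins one of 45.1 TPM, against 10.1 TPM over all genes.

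**Figure D2:**
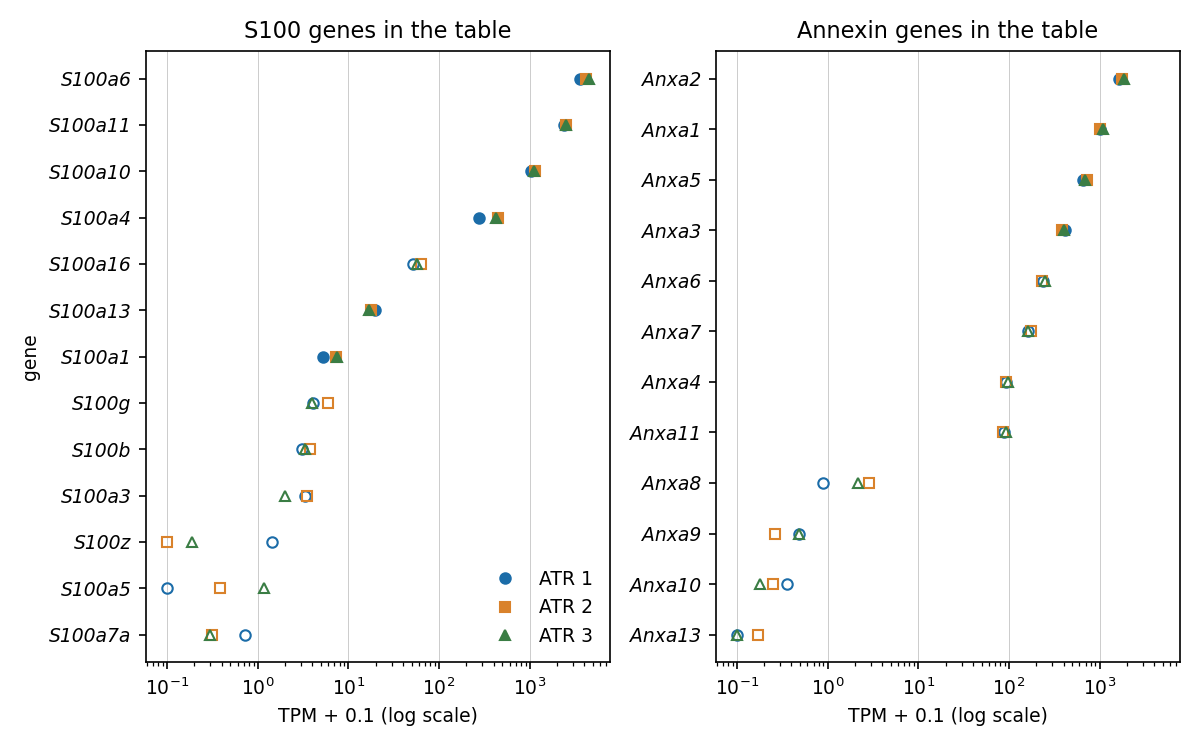
TPM + 0.1 (log scale) of every S100 gene (left) and annexin gene (right) of the table in ATR 1, ATR 2 and ATR 3, with filled points for the 10 genes described and open points for the others. S100 levels spread from 4093 TPM for S100a6 to under 1 TPM for S100a7a, while 8 of 12 annexins lie above 80 TPM.

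Chromosomal neighbours differed widely in level. In the order of protein-coding genes in RefSeq, S100a4 and S100a6 flank S100a5, S100a1 lies beside S100a13, and S100a10 beside S100a11. S100a5 had 0, 1 and 4 reads between neighbours at 383 TPM (S100a4) and 4093 TPM (S100a6). S100a11 exceeded its neighbour S100a10 in mean TPM (2489 against 1093), and S100a13 exceeded S100a1 (18.1 against 6.57).

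The transcripts of binding partners were set against each other within each library. S100a10 stood to Anxa2 as 0.627, 0.635 and 0.605 in TPM, a mean of 0.623 ± 0.0155. S100a11 stood to Anxa1 as 2.36, 2.47 and 2.36, a mean of 2.40 ± 0.0645 (SD, n = 3). S100a6 stood to Cacybp, the gene of its partner CacyBP, as 36.5, 41.5 and 42.5. Coefficients of variation of these TPM ratios were 2.49%, 2.69% and 7.97%. For 6 other pairs of members they ran from 4.50% (Anxa2 to Anxa5) and 5.13% (S100a10 to Anxa1) upward. The largest were 17.4% (S100a6 to S100a4) and 29.3% (the thinly counted S100a13 to S100a1). These 6 pairs were picked by hand and most pairs of members, such as S100a10 to Anxa5, were left out. The values therefore do not show that partners keep steadier ratios than other members, and differences between pairs were not tested. In scaled reads that of S100a11 to Anxa1 was larger, at 6.22%, while that of S100a10 to Anxa2 was again 2.49%. These ratios are of transcripts and say nothing of the proteins.

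Spread between the libraries exceeded counting noise in 8 of the 10 genes, all but S100a1 and S100a13. The same held for 23.2% of all genes tested, a share that climbs with depth. It was 15.9% among tested genes with under 3000 reads in all. Among the 4030 genes with at least 3000 reads, to which the 8 genes belong, it was 39.9%. Of the 8, S100a4 had 4627 reads in all and the others 15771 to 62298, and the share at those depths was not computed. The chi-square test gave adjusted p-values of 8.00e-92 for S100a6, 1.01e-48 for Anxa2, 6.81e-45 for S100a4 and 1.95e-15 for S100a11. They were 9.45e-11 for Anxa5, 2.43e-09 for S100a10, 2.65e-09 for Anxa1 and 0.00663 for Anxa3. S100a13 (0.823) and S100a1 (0.476) did not pass.

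At this depth small differences pass, so their size matters more. Coefficients of variation of scaled reads among the 8 genes were 2.84% for Anxa3, 4.20% for Anxa1, 5.47% for Anxa5, 5.997% for S100a11, 6.58% for S100a10, 7.43% for Anxa2, 12.7% for S100a6 and 26.2% for S100a4. The median over genes above 5 TPM was 5.04%. When the variance also allowed for the common biological coefficient of variation of 8.24% that edgeR estimated from these libraries, 3.26% of genes passed, and S100a4 alone of the 10 did (adjusted p = 0.00409). This allowance was chosen after seeing the data.

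ATR 1 was the lowest library for 8 of the 10 genes in scaled reads, and 7 of these 8 passed the chi-square test. A pass does not by itself set ATR 1 below both other libraries. For Anxa1, ATR 2 over ATR 1 was 1.02 (0.996 to 1.05), an interval that includes 1, and ATR 3 over ATR 1 was 1.08 (1.06 to 1.11). Among all genes tested, 35.1% were lowest in ATR 1 (33.4% of those with at least 3000 reads), and 9.07% were lowest there and passed. The exceptions were Anxa3, lowest in ATR 2, and S100a13, whose lowest value in ATR 3 lay within counting error. In TPM the count was again 8 of 10, against 26.9% of genes tested.

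The excess over ATR 1 was graded. In scaled reads S100a4 was 1.67 times as high in ATR 2 (1.55 to 1.81) and 1.62 times in ATR 3 (1.503 to 1.75). Without ATR 1, S100a4 no longer passed (adjusted p = 0.649), nor did S100a10 (adjusted p = 0.779), and ATR 3 over ATR 2 was 0.969 (0.906 to 1.04) for S100a4. Anxa2 exceeded ATR 1 by 1.12 (1.09 to 1.14) in ATR 2 and 1.16 (1.13 to 1.18) in ATR 3. Anxa3 did not share the pattern, at 0.954 (0.926 to 0.983) and 1.00 (0.975 to 1.03). Its call was lost without ATR 2 (adjusted p = 0.901), and that of Anxa1 without ATR 3 (adjusted p = 0.290).

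**Figure D3:**
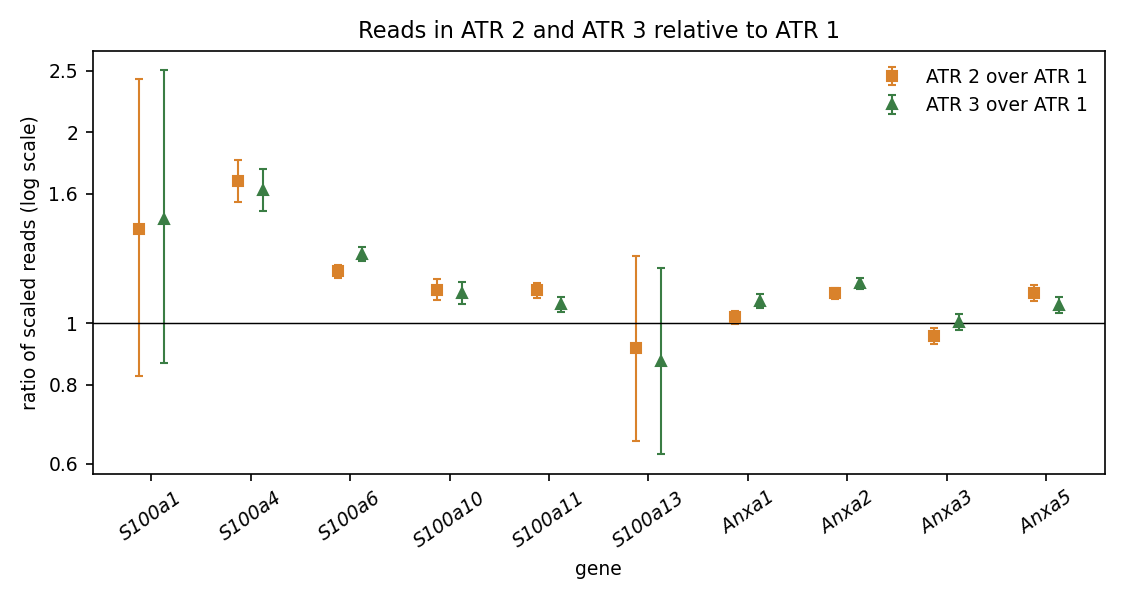
Ratio of scaled reads in ATR 2 and in ATR 3 to ATR 1 for the 10 genes (log scale), with exact 95% intervals for counting error. S100a4 stands highest at 1.67 and 1.62, S100a6 next among well-counted genes at 1.21 and 1.29, and the wide intervals of S100a1 and S100a13 include 1.

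Marker genes moved between the same libraries. Of the 10 stromal markers, 6 of 9 tested were lowest in ATR 1, among them Thy1 (23.2, 104 and 82.7 TPM) and Pdgfra (1.36, 5.27 and 3.67 TPM), while Tcf21 had 0, 4 and 1 reads. The other 3 tested were highest in ATR 1: Col14a1 (333, 267 and 305 TPM), Ogn (204, 181 and 179 TPM) and Dcn (25.3, 22.8 and 21.2 TPM). The stromal list summed to 751, 791 and 792 TPM. The 9 leukocyte markers found summed to 104, 130 and 128 TPM, with Cd52 at 0 reads in ATR 1 and ATR 3. Most of that sum was Lyz2 (60.2, 78.6 and 83.2 TPM), whose counts are not whole. Of 8 leukocyte markers tested, 5 were lowest in ATR 1. The chi-square test was passed by 1 of the 8, against 23.2% of all genes tested. The 12 surface epithelium markers summed to 2390, 2272 and 2334 TPM, and 5 of 10 tested were lowest in ATR 1. Krt7 (55.0, 88.9 and 79.9 TPM) was among these, whereas Upk3b (1513, 1316 and 1379 TPM) and Lrrn4 (189, 149 and 164 TPM) were highest in ATR 1. Counts of Lrrn4 are not whole. The 7 smooth muscle markers found summed to 17684, 16506 and 16342 TPM, carried mostly by Tagln and Acta2, both highest in ATR 1. In scaled reads 3 of the 7 were lowest in ATR 1: Cnn1, Des (7.22, 20.4 and 7.69 TPM) and Notch3. The 14 granulosa markers summed to 3280, 3011 and 2886 TPM, a sum carried mostly by Gja1 (2036, 1863 and 1821 TPM) and Inha (522, 427 and 378 TPM), with Amh at 0, 2 and 1 reads. Of 12 tested, 3 were lowest in ATR 1, among them Fst (53.3, 84.6 and 59.7 TPM). The part of these cell types in the S100 and annexin values was not tested.

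The genes whose deviations over the libraries lay nearest to those of S100a4, the member with the largest SD (0.41 in log2 of CPM + 0.5), were Parvb, Slc16a3, Gstm3, Ikzf2 and Emilin1. Their distances were 0.0378 to 0.0582 on the log2 scale. Of 2689 genes that passed the test with a mean of at least 5 CPM, 10 lay within 0.1. With 3 libraries this likeness is a description alone.

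Partners and receptors were looked up in a list of 34, of which 32 were found and 26 reached 1 TPM. Of 27 tested, 10 passed the chi-square test, 7 of them lowest in ATR 1, where 23.2% of all genes tested passed and 9.07% passed and were lowest in ATR 1. Inside the cell, Cacybp, the partner of S100A6, stood at 102 ± 3.66 TPM. Ahnak, a giant scaffold that S100A10 and annexin A2 tether to the membrane, stood at 190, 192 and 206 TPM and was lowest in ATR 1 (adjusted p = 4.51e-36). Myh9, the myosin chain that S100A4 binds, ran differently, at 185, 144 and 169 TPM, lowest in ATR 2. The counts of Myh9 are not whole, so its level is uncertain.

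Plasminogen activation at the cell surface draws on S100A10 and annexin A2. The activator Plat stood at 195 ± 6.57 TPM from counts that are not whole. The urokinase receptor Plaur stood at 38.7, 62.1 and 51.8 TPM, with ATR 2 over ATR 1 at 1.64 (1.44 to 1.86), the same low library as S100a10 and Anxa2. Plau itself was at 4.86 ± 0.376 TPM and Plg, which encodes plasminogen, had 2, 6 and 1 reads.

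Among receptors named for secreted S100 proteins and annexin A1, most of those with values here were scarce. The formyl peptide receptor genes Fpr2 and Fpr3 have no row in the table, so their levels are unknown. Ager, the receptor RAGE, had 14, 10 and 13 reads, Tlr4 stood at 2.24 ± 0.125 TPM and Fpr1 had 1, 0 and 0 reads. Bsg (basigin), described in human cells as a receptor of S100A9 and known for many other partners, stood at 1913 ± 39.7 TPM. Of the genes for FGF1 and synaptotagmin 1, which S100A13 joins in FGF1 release, Fgf1 stood at 9.71 ± 1.41 and Syt1 at 2.05 ± 0.408 TPM. Dysf, the membrane repair protein dysferlin, stood at 20.5, 24.4 and 22.6 TPM, lowest in ATR 1 (adjusted p = 5.79e-05).

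Other calcium-binding genes reached the levels of the leading annexins. Of 16 looked up, 15 reached 1 TPM and 11 reached 100 TPM. Calm2 stood at 1063 ± 46.6 and Calm3 at 298 ± 11.9 TPM, and Calr, a chaperone of the endoplasmic reticulum, at 2217 ± 36.2 TPM. The summed level of the 16 was 6745, 6788 and 6911 TPM, so S100a6 alone equalled 53.1%, 62.2% and 64.8% of it. Of 15 tested, 10 passed, 8 of them lowest in ATR 1, beside the same shares over all genes and the 39.9% passing among genes with at least 3000 reads. The median log2 deviation in ATR 1 was -0.10 for the 10 S100 and annexin genes and -0.04 for this list. Counts of Calm2 are not whole, so its level is uncertain.

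Reads per TPM set S100a11 apart from the other members. Reads per TPM, which follow the transcript length used, varied between libraries by at most 0.233% in 9 of the 10 genes once libraries were put on a common scale. For S100a11 they were 0.989, 1.04 and 0.973 of their mean, a coefficient of variation of 3.38% that 4.42% of 10264 genes above 5 TPM equalled or exceeded. In scaled reads S100a11 was highest in ATR 2 (580 CPM, against 515 in ATR 1 and 551 in ATR 3), whereas in TPM ATR 3 was highest. The low value of S100a11 in ATR 1 held on both scales. Anxa3 changed its highest library too, by a small margin. It was ATR 3 in scaled reads (463 CPM, against 461 in ATR 1) and ATR 1 in TPM (413, against 403 in ATR 3). The labels do not say how transcript lengths were set.

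**Figure D4:**
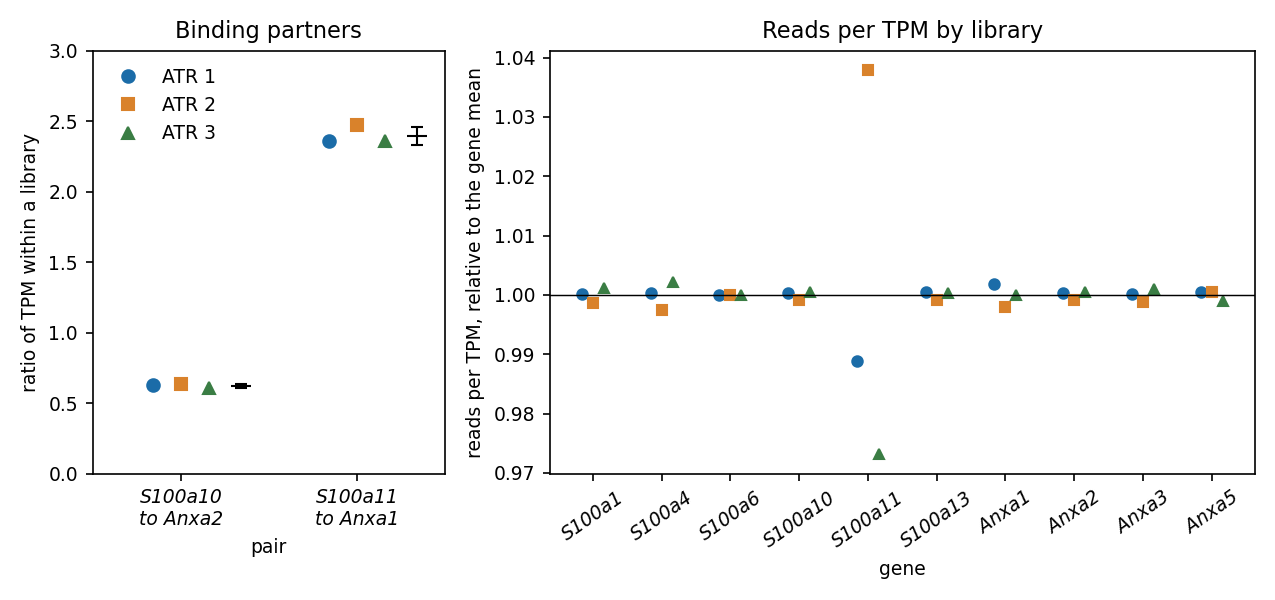
Left, ratio of TPM within each library for S100a10 to Anxa2 and S100a11 to Anxa1, with mean and SD (n = 3) as a black bar. Right, reads per TPM in each library relative to the gene's mean, where S100a11 spans 0.973 to 1.04 and the other 9 genes stay close to 1.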

How the data were processed

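Per the submitters' processing notes, the data were made with fastp 0.20.1, HISAT2 2.2.1 and StringTie 2.1.5, and the notes name the builds Rnor_6.0 and GRCm38. Their roles are not given in those notes. Per the file headers, the authors deposited for each gene and library a TPM value and an estimated count of reads, of which 19.0% to 19.2% per library are not whole (tolerance 0.001). The table used here has columns of the 3 ATR libraries. Totals were 19020494, 18677212 and 19170552 reads.

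The members and lists were chosen with earlier results of these data known. All 10 members are named, and from the other lists the most abundant genes, known partners and receptors, and markers that define a cell type. Estimated counts were rounded. Scaling (TMM) and the common dispersion came from edgeR 4.0.16 and an alternative scaling from DESeq2 1.42.0 (R 4.3.3). The chi-square test was run with scipy 1.17.1 (Python 3.11.15, with pandas 2.3.3 and numpy 2.4.6) at a threshold of 0.05 and was tested on simulated data. Logs use log2(CPM + 0.5). Plots used matplotlib 3.10.9. Of 17525 gene identifiers, 16392 were found in the RefSeq table of GRCr8, used for names, neighbours and promoter sequence. Its coordinates are not those of the authors' build.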

Additional observations from a re-analysis of the deposited data

How the results depend on the processing

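No paired analysis was possible because every library with values here is an ATR library, and a contrast with Control, though planned, was left unrun. Counts of genes beyond counting noise were 3087 as reported, 1528 to 2230 with 1 library left out (lowest without ATR 1), where fewer libraries give less power, and 434 when the common biological coefficient of variation was allowed for, which left 1 of the 10 members. With 1 library left out, 6 to 7 members passed. The 8 members passed under library totals, DESeq2 size factors, no low-count filter and genes with whole counts alone. With reads in place of TPM, which drops the length scaling, the members' share of the library was 0.430% in place of 1.20%, S100a10 to Anxa2 was 0.253 and S100a11 to Anxa1 0.812. ATR 1 was lowest for 8 members under each scaling tried. Depth limits S100a1 and S100a13, with at most 78 reads per library.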

Other observations

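Anxa8, an annexin of stratified epithelia, had the largest SD in log2 of CPM + 0.5 of the 25 S100 and annexin genes of the table, at 0.67, from 13, 45 and 34 reads in ATR 1, ATR 2 and ATR 3. It passed the chi-square test (adjusted p = 0.00118), with ATR 2 over ATR 1 at 3.52 (exact 95% interval 1.87 to 7.11). It was singled out after its values were seen. S100a16 was the only S100 gene outside the 10 members to pass the chi-square test (adjusted p = 0.00989). Its lowest library was also ATR 1, at 51.9 TPM, against 63.6 in ATR 2 and 56.5 in ATR 3.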
